A study of Mus musculus with 121 samples.

Results

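The response to gamma rays on day 4 was measured in nfsa, a fibrosarcoma that arose spontaneously in a C3H/He mouse and was carried as a transplant. The arrays described are the 6 titled as nfsa on day 4 after gamma irradiation (3 after 30 Gy and 3 after 50 Gy) and the 2 titled as unirradiated nfsa on day 1, together 8 arrays beside 113 others of the series. The series covers 6 murine tumours given gamma rays or carbon ions, with total RNA measured on 1-colour CodeLink arrays, on which each probe gives one brightness value. Every tumour grew in the hind leg of male C3H/HeMs mice, and the leg was irradiated locally with a single dose, so that the unirradiated arrays share the strain, the sex, the host and the transplant. The unirradiated arrays are of day 1, and no unirradiated nfsa array of day 4 was analysed here. Dose and the further days of growth therefore cannot be told apart in these comparisons. As a side value for time without irradiation, the change between day 1 and day 9 in another unirradiated tumour of the series, the mammary carcinoma mmca, is given for some lists and genes. Of 188 genes named for day 4 and called, 22 changed there in the same direction by at least 50% as much on the log2 scale, among them Ms4a7, C1qa, Gapdh and Cd79a. Nothing in the labels tells if replicate arrays hold RNA of different animals. If they do not, the p-values measure a spread between arrays that is technical.

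Ionizing radiation breaks DNA, which halts the cell cycle through checkpoint kinases and the transcription factor p53, and many tumour cells go on to die when they next try to divide. Fragments of DNA in the cytoplasm of damaged cells can start type I interferon signalling, which switches on antiviral genes. Natural killer (NK) cells and cytotoxic T cells, which kill targets with perforin and granzymes, and macrophages, which clear dead cells, can enter an irradiated tumour in the days that follow.

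The label was checked against marker genes on the unirradiated arrays. The mean level of 9 epithelial genes was 0.13 to 0.19 (log2 intensity) in nfsa, against 3.21 to 3.28 in mmca and 3.36 to 3.41 in mca4, both mammary carcinomas. The mean of 20 mesenchymal genes was 3.97 to 4.20 in nfsa, against 1.73 to 1.77 in mmca and 2.21 to 2.28 in mca4. The levels thus ran in the direction of a fibrosarcoma. With missing values counted as low, the median deposited intensity of each of the 8 arrays was 1.02 to 1.04, and 10.1 to 12.5% of probes had no value on the unirradiated arrays against 12.5 to 18.2% on the day 4 arrays. The arrays differed at both ends of the scale. On the unirradiated arrays 2164 and 1677 probes lay under 0.1269, the floor used here, against 0 to 17 on the day 4 arrays. The highest values were 214 and 243 without irradiation and 388 to 427 on day 4. On day 1, 215 and 804 probes lay under the floor after 30 Gy, 1846 and 2307 after 50 Gy and 2217 and 2133 after 70 Gy. In these counts the unirradiated arrays lay with day 1 after 50 and 70 Gy, and the day 4 arrays lay apart from them. This difference between arrays cannot be told apart from dose and day in the comparison of day 4 with the unirradiated arrays. Why the arrays differ in this way was not tested. The arrays of each nfsa group used here correlated across genes at 0.9868 or more, except that replicate 3 of 50 Gy day 4 stood apart, with a lowest correlation of 0.9595 within its group. On that array the mean of 22 skeletal muscle genes was 6.49, against 1.24 to 3.73 on the other 5 day 4 arrays and 3.71 to 3.72 on the unirradiated arrays. The part of this array in the results was not tested by any other means than leaving it out, and values without it are given below.

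On day 4, 7581 of 12928 genes tested (58.6%) differed from the unirradiated arrays at an adjusted p under 0.05 (limma with Benjamini-Hochberg adjustment, mean of both doses minus unirradiated), of which 3149 were higher and 4432 lower. A 2-fold difference or more was called for 703 genes that rose and 734 that fell, and a 4-fold difference or more for 117 and 58. All 6 day 4 arrays were above both unirradiated arrays for 2563 of 12472 genes with a value on all 8 arrays (20.6%), and below both for 3923 (31.5%). Each dose alone gave 6692 called genes at 30 Gy, 51.8% of 12931, and 7518 at 50 Gy, 58.1% of 12938. These comparisons share the same 2 unirradiated arrays. The median difference of all genes was -0.07 on the log2 scale, and -0.22 after quantile normalization, which forces one distribution on all arrays. Under quantile normalization 2239 genes (17.3%) were higher and 5864 (45.4%) lower, so the share of calls that were higher went from 41.5% to 27.6%. As deposited, 24.4% of all genes tested rose and 34.3% fell on day 4, and each day 4 count of a list below is to be read beside these shares. Differences below are on the log2 scale of the deposited intensities, with the standard error of the model, over 2 unirradiated and 6 day 4 arrays unless another number is given.

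Genes of T and NK cells had the largest median rise of the gene lists described here. Of 27 such genes on the array, 19 passed the filter on dim and missing probes. Of these 19, 16 rose and 2 fell on day 4, where 24.4% of all genes tested rose and 34.3% fell, and the median difference of the 19 was 3.16. Granzyme A (Gzma), a serine protease of cytotoxic granules, measured 1.46 and 1.34 on the unirradiated arrays, 6.52, 7.92 and 6.77 after 30 Gy and 7.80, 7.70 and 8.09 after 50 Gy. The difference was 6.07 ± 0.37, a fold of 67.0 (adjusted p = 1.2e-22, limma), and every day 4 array lay far above both unirradiated arrays. Granzyme B (Gzmb), which cuts caspases in the target cell, measured -2.20 and -1.81 on the unirradiated arrays, 1.79, 2.31 and 2.07 after 30 Gy and 2.12, 1.91 and 2.79 after 50 Gy, a difference of 4.17 ± 0.30. Perforin (Prf1), which opens the target membrane, measured -0.59 and -0.05 on the unirradiated arrays, 3.01, 3.97 and 3.43 after 30 Gy and 3.91, 3.76 and 4.35 after 50 Gy, a difference of 4.06 ± 0.37. For both genes the day 4 arrays of either dose formed one band with no overlap with the unirradiated arrays.

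Receptors of NK cells moved with the granule genes. Ncr1, the activating receptor NKp46 and a defining NK cell gene, measured 0.65 and 0.48 on the unirradiated arrays, 3.24, 4.34 and 3.57 after 30 Gy and 4.21, 4.08 and 4.83 after 50 Gy, a difference of 3.48 ± 0.25. Klrc1, the inhibitory receptor NKG2A, measured -2.03 and -1.89 on the unirradiated arrays, 1.82, 2.55 and 1.86 after 30 Gy and 2.40, 2.33 and 2.79 after 50 Gy, a difference of 4.25 ± 0.36 (adjusted p = 8.87e-17, limma). The values of both were lowest on the unirradiated arrays, and the 30 and 50 Gy arrays overlapped with each other. Sh2d1a and Sh2d2a were also among the 15 largest rises named by the rule given under processing. Sh2d1a, the signalling adaptor SAP of T and NK cells, differed by 4.34 ± 0.41, and Sh2d2a, a T cell adaptor, by 3.88 ± 0.37. Cd96, a receptor of T and NK cells, at 3.53 ± 0.37, Klrc2, an activating NK receptor, at 3.60 ± 0.33, and granzyme E (Gzme) at 3.61 ± 0.55 were among them too. The death ligand Fasl, which cytotoxic cells also use to kill, rose by 3.32 ± 0.39.

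The following 5 genes of T cells and their receptors were singled out after their values were seen, and no test compared them with the NK cell genes. Cd3g, a chain of the T cell receptor complex, measured 0.36 and -0.15 on the unirradiated arrays, 2.17, 2.07 and 1.91 after 30 Gy and 2.15, 2.39 and 2.37 after 50 Gy, a difference of 2.07 ± 0.51. Cd4, of helper T cells and some macrophages, measured 0.99 and 1.03 on the unirradiated arrays, 1.43, 1.23 and 1.31 after 30 Gy and 1.37, 1.52 and 1.66 after 50 Gy, a difference of 0.41 ± 0.14, which passed the test (adjusted p = 0.0101, limma). Cd8b1, the beta chain of the coreceptor of cytotoxic T cells, measured -1.31 and -1.89 on the unirradiated arrays, -0.94, -1.63 and -1.62 after 30 Gy and -1.41, -1.01 and -0.53 after 50 Gy. The day 4 and unirradiated arrays overlapped, and the difference of 0.41 ± 0.50 did not pass the test (adjusted p = 0.496, limma). Foxp3, of regulatory T cells, fell by a small amount, -0.23 ± 0.093, with one unirradiated array at 1.62 and the highest day 4 array at 1.66. Cd247, the zeta chain shared by T cell and NK cell receptors, was also lower, at -0.37 ± 0.084.

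**Figure D1:**
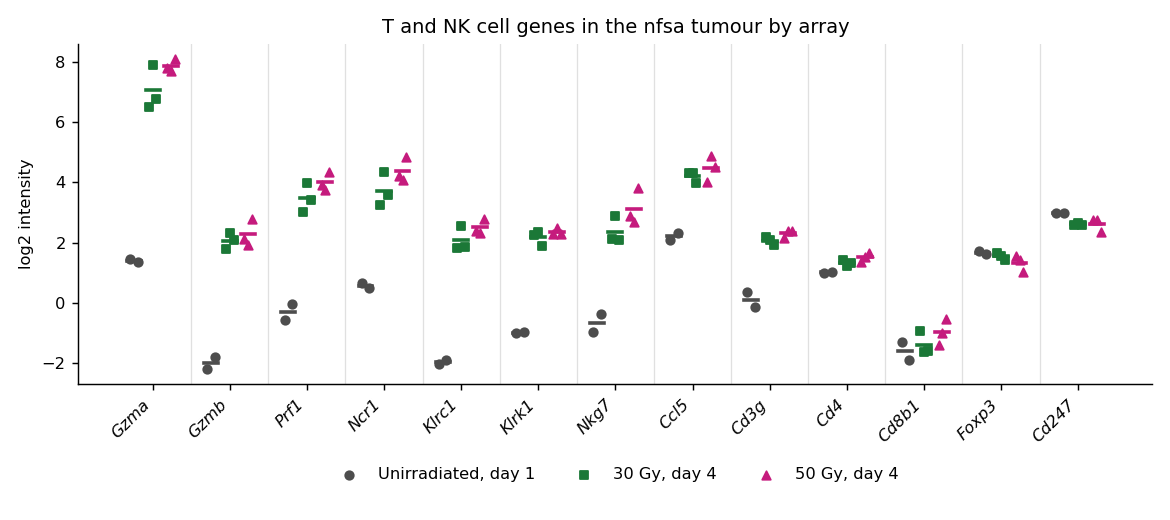
Log2 intensity of 13 T and NK cell genes on each nfsa array, with 2 unirradiated arrays, 3 arrays of day 4 after 30 Gy and 3 after 50 Gy as points and the group means as bars. For Gzma the day 4 points sit between 6.52 and 8.09 and the unirradiated points at 1.34 and 1.46, while the groups overlap for Cd8b1.

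The rise of this list was present at each dose. At 30 Gy alone 13 of the 19 genes rose and 1 fell, where 22.9% of all genes rose and 28.8% fell, with a median difference of 2.78. At 50 Gy alone 16 rose and 2 fell, where 22.9% of all genes rose and 35.2% fell, with a median of 3.35. Without replicate 3 of 50 Gy, 15 rose and 1 fell on day 4, where 26.5% of all genes rose and 33.2% fell. The mean of 18 of the genes was -0.13 to -0.07 on the unirradiated arrays, 2.02 to 2.46 after 30 Gy and 2.44 to 2.80 after 50 Gy, the highest value being on the array rich in muscle genes. In a piece of tumour, more cells of a type and more RNA per cell cannot be told apart. In unirradiated mmca the median difference of these genes between day 1 and day 9 was 0.58.

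Interferon-stimulated genes were the next group to rise in near unison. Of 32 genes tested, 30 rose and none fell, with a median difference of 1.22. Irf7, the transcription factor that amplifies type I interferon, measured 4.93 and 4.93 on the unirradiated arrays, 7.87, 7.53 and 7.41 after 30 Gy and 7.38, 7.53 and 6.88 after 50 Gy. It differed by 2.50 ± 0.19, a fold of 5.67 (adjusted p = 1.73e-18, limma), and both doses lay above both unirradiated arrays. The antiviral GTPases Mx1 and Mx2 differed by 2.29 ± 0.22 and 2.05 ± 0.25. Bst2, or tetherin, which holds budding viruses at the cell surface, differed by 2.03 ± 0.17. Ifit1, which binds viral RNA, measured 2.37 and 2.80 on the unirradiated arrays, 5.41, 5.14 and 5.21 after 30 Gy and 4.80, 4.64 and 3.84 after 50 Gy, a difference of 2.25 ± 0.25. The 3 arrays of 50 Gy lay below the 3 of 30 Gy for Ifit1, and the test between doses gave -0.82 ± 0.25 (adjusted p = 0.0182, limma), a call that was lost without replicate 3 of 50 Gy. The 2 genes of the list that did not pass the test were Isg15, a ubiquitin-like modifier, at -0.28 ± 0.19, and Dhx58, an RNA sensor, at 0.32 ± 0.16. Both were named after their values were seen.

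The guanylate-binding proteins and immunity-related GTPases, which interferon gamma induces strongly and which attack intracellular parasites, rose further. Of 11 tested, 10 rose and none fell, with a median difference of 1.46, and Gbp7 at -0.10 ± 0.10 was the one not called. Iigp1 measured 0.51 and 0.84 on the unirradiated arrays, 4.60, 4.42 and 4.82 after 30 Gy and 4.33, 4.31 and 3.06 after 50 Gy, a difference of 3.58 ± 0.31. Gbp3 measured 0.28 and 1.36 on the unirradiated arrays, 4.03, 3.93 and 3.98 after 30 Gy and 3.90, 3.63 and 2.79 after 50 Gy, a difference of 2.89 ± 0.26 (adjusted p = 8.5e-16, limma). Irgm2 measured 0.73 and 0.68 on the unirradiated arrays, 3.18, 2.99 and 3.12 after 30 Gy and 3.22, 3.10 and 2.47 after 50 Gy, a difference of 2.31 ± 0.23. In all 3 genes the day 4 arrays lay above the unirradiated arrays, and replicate 3 of 50 Gy was the lowest of the 6. Gbp4 and Gbp2 differed by 2.80 ± 0.32 and 2.73 ± 0.28. Gbp8, which is outside the list, had the largest rise after Gzma among the genes named, at 4.81 ± 0.45, from levels at or near the lowest value the scale allows (-2.98 and -2.79). Counts were the same without replicate 3 of 50 Gy for the interferon-stimulated genes (30 rose) and for the GTPases (10 rose), and under quantile normalization 28 and 9 rose. In unirradiated mmca the medians between day 1 and day 9 were 0.21 and 0.13.

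Since most of these genes rose together, the promoter letters of 2 of them are shown. The windows run from 250 bases before to 50 bases after the transcription start in RefSeq (build GRCm38.p6), for Gbp3 at chr3:142559794-142560093, plus strand, and for Irgm2 at chr11:58214727-58215026, plus strand. Both are written in the direction of the gene, and capitals mark the interferon-stimulated response element core, searched on both strands as GAAA, any 2 bases, GAAA.
Gbp3: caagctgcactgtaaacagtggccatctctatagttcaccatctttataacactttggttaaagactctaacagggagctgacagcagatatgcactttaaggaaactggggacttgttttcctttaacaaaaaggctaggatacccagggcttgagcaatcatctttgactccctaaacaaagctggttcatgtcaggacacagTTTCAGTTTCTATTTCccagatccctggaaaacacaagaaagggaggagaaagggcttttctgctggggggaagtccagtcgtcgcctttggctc
Irgm2: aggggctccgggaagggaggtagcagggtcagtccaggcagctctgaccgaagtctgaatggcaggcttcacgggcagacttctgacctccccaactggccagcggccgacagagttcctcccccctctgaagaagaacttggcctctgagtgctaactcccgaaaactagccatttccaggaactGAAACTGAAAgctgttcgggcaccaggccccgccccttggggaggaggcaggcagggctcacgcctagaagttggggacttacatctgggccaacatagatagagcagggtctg
In Gbp3 the core matched on the opposite strand from bases -45 and -39 relative to the start, 2 matches that share bases, and in Irgm2 on the gene's strand from base -64. Of the 8 GTPases with a promoter window 7 held this core (87.5%), and of 24 interferon-stimulated genes 11 did (45.8%), against 3.49% of all 27018 promoters. Gbp7 and Isg15, which were not called on day 4, were among the genes with the core. For the T and NK cell list 1 of 13 windows held it (7.69%). The gamma-activated site, searched as TTCNNNGAA, was in 4 of the 8 GTPase windows (50.0%), in 8 of the 24 interferon-stimulated gene windows (33.3%) and in 8.47% of all windows. Its letters can share bases with the response element core. A match describes the letters only.

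Genes that load and present antigen on MHC class I rose in part. Of 10 tested, 7 rose and 1 fell, with a median difference of 1.01. H2-Q1, a non-classical class I gene, measured 0.44 and 0.08 on the unirradiated arrays, 2.81, 2.99 and 2.37 after 30 Gy and 2.75, 2.59 and 2.97 after 50 Gy, a difference of 2.49 ± 0.21. It belongs to a family of near-identical genes, so a probe may read several of them. In unirradiated mmca this gene differed by 1.27 between day 1 and day 9. The immunoproteasome subunits Psmb9 and Psmb8 differed by 1.47 ± 0.20 and 1.07 ± 0.15, the peptide transporter Tap1 by 1.43 ± 0.20 and H2-M3 by 1.23 ± 0.16. Calreticulin (Calr), a chaperone of peptide loading, was the member that fell, at -0.96 ± 0.082. Of 9 class II genes only H2-Aa (0.89 ± 0.34) and H2-DMa (0.59 ± 0.22) passed the test. Neither did when either unirradiated array was left out or with array weights, nor did H2-Aa without replicate 3 of 50 Gy.

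Most macrophage genes rose as well. Of 25 tested, 17 rose and 2 fell, with a median difference of 0.82. Apoe, a lipid carrier made by macrophages, measured 1.50 and 1.68 on the unirradiated arrays, 5.19, 5.72 and 4.24 after 30 Gy and 5.52, 5.55 and 7.70 after 50 Gy. Its difference of 4.07 ± 0.35 included the highest value on replicate 3 of 50 Gy, and was 3.71 without that array. Apoc2, a lipoprotein cofactor, differed by 3.85 ± 0.25. Ms4a7, Adgre1, a macrophage surface receptor, and Mpeg1, a macrophage pore protein, differed by 2.15 ± 0.22, 1.95 ± 0.23 and 1.77 ± 0.21. Arginase 1 (Arg1), an enzyme of alternatively activated and tumour macrophages, went the other way, measuring 4.23 and 4.65 on the unirradiated arrays, 2.63, 1.94 and 2.02 after 30 Gy and 2.60, 1.06 and 2.42 after 50 Gy, a difference of -2.33 ± 0.28 (adjusted p = 5.03e-11, limma). All 6 day 4 arrays were below both unirradiated arrays for Arg1. Cd14, the lipopolysaccharide coreceptor, also fell, at -0.62 ± 0.11. In unirradiated mmca the median of the list between day 1 and day 9 was 0.46, and Ms4a7 differed by 1.60 there.

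Other leukocyte lists were mixed, and their counts stand beside 24.4% of all genes that rose and 34.3% that fell. Of 14 neutrophil genes 3 rose and 2 fell, among them Csf3r, the receptor for granulocyte colony-stimulating factor, at 1.18 ± 0.14, and S100a9, a calcium-binding protein of neutrophils, at 1.00 ± 0.37, which did not pass without either unirradiated array. Of 11 dendritic cell genes 3 rose and 5 fell. Irf8, a transcription factor of dendritic cells and monocytes, rose by 1.20 ± 0.19 and Itgax (CD11c) by 0.91 ± 0.19. Fscn1, an actin-bundling protein of mature dendritic cells and of mesenchymal tumour cells, fell from 5.93 and 5.80 to 4.07, 4.15 and 4.40 at 30 Gy and 3.89, 3.92 and 3.51 at 50 Gy. Of 10 B and plasma cell genes 2 rose and 3 fell. The B cell receptor chains went in opposite directions, with Cd79b at 0.98 ± 0.28 and Cd79a at -0.95 ± 0.093, the former not called under quantile normalization or without replicate 2 of the unirradiated arrays. Of 9 mast cell genes 1 rose and 1 fell.

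Of 23 chemokines tested, 11 rose and 2 fell, with a median difference of 0.53. Ccl11 (eotaxin), which attracts eosinophils, measured 2.62 and 2.21 on the unirradiated arrays, 6.22, 6.39 and 7.10 after 30 Gy and 6.72, 6.53 and 6.26 after 50 Gy. Its difference of 4.12 ± 0.44 was a fold of 17.4, and the doses overlapped with each other but not with the unirradiated arrays. In unirradiated mmca Ccl11 differed by 1.58 between day 1 and day 9. Cxcl9 and Cxcl11, interferon-induced ligands of the receptor Cxcr3 on T and NK cells, differed by 2.55 ± 0.38 and 2.46 ± 0.34. Ccl5, which T and NK cells themselves make, measured 2.09 and 2.32 on the unirradiated arrays, 4.33, 4.33 and 3.99 after 30 Gy and 4.03, 4.89 and 4.51 after 50 Gy, a difference of 2.14 ± 0.34. Ccl8, a monocyte attractant, had a value on 1 unirradiated array only (5.57) and measured 8.09, 8.17 and 7.92 after 30 Gy and 8.59, 8.32 and 8.27 after 50 Gy.

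Complement genes rose together. Of 12 tested, 9 rose and none fell, with a median difference of 1.39. Factor B (Cfb), of the alternative pathway, measured 2.20 and 2.73 on the unirradiated arrays, 5.57, 5.45 and 5.02 after 30 Gy and 5.56, 5.69 and 5.46 after 50 Gy, a difference of 2.99 ± 0.31 (adjusted p = 3.55e-13, limma). C2 and C1ra, proteases of the classical pathway, differed by 1.77 ± 0.32 and 1.59 ± 0.19, and C1qa, a recognition subunit made by macrophages, by 1.48 ± 0.17. Cd55, which protects cells from complement, differed by 2.38 ± 0.32. The mean of 11 complement genes was 4.37 to 4.53 on the unirradiated arrays and 5.55 to 5.78 on the day 4 arrays. In unirradiated mmca C1qa differed by 0.93 between day 1 and day 9 and Cfb by 0.81.

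Targets of p53 were still raised on day 4, but not as a whole. Of 31 tested, 15 rose and 5 fell, with a median difference of 0.33. Mdm2, the ubiquitin ligase that limits p53, measured 0.08 and 0.85 on the unirradiated arrays, 2.17, 2.28 and 2.19 after 30 Gy and 2.28, 2.42 and 2.13 after 50 Gy, a difference of 1.78 ± 0.15 (adjusted p = 4.15e-17, limma). Cdkn1a, the cell cycle inhibitor p21, measured 4.74 and 3.93 on the unirradiated arrays, 4.77, 4.88 and 5.07 after 30 Gy and 4.81, 4.95 and 5.78 after 50 Gy. One unirradiated array (4.74) lay just below the lowest day 4 array (4.77), the difference was 0.71 ± 0.16, and it did not pass the test without the lower unirradiated array, replicate 2. Ccng1, a p53-induced cyclin, differed by 1.24 ± 0.14, and Sesn1, a stress-induced inhibitor of growth signalling, by 1.61 ± 0.17. Ephx1, an epoxide-detoxifying enzyme, differed by 1.68 ± 0.15, Pltp, a lipid transfer protein, by 1.74 ± 0.20 and the death receptor Fas by 1.37 ± 0.15. Trp53inp1, a cofactor of p53, was lower, at -0.34 ± 0.099, and like Cdkn1a was not called without replicate 2 of the unirradiated arrays. Gtse1, a member with a role in G2 and mitosis, fell by more, with a difference of -1.39 ± 0.13. On day 1 the doses stood apart for Mdm2, with 0.83 and 0.96 after 30 Gy and 2.47 and 2.01 after 50 Gy, so that the day 4 arrays were above day 1 at 30 Gy and overlapped with it at 50 Gy. Cdkn1a measured 7.16 and 7.38 on day 1 after 30 Gy and 5.31 and 5.11 after 50 Gy, above the day 4 arrays at 30 Gy and overlapping with them at 50 Gy. Ccng1 was lower on day 4 than on day 1, at -0.43 ± 0.11 over both doses.

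Mitosis genes fell almost without exception, and further after the higher dose. Of 43 tested, 39 fell and none rose, with a median difference of -1.06. Cdc20, which activates the ligase that starts anaphase, measured 4.96 and 5.19 on the unirradiated arrays, 3.84, 3.87 and 3.67 after 30 Gy and 2.76, 2.64 and 2.40 after 50 Gy. The 3 groups did not overlap, in the order unirradiated, 30 Gy, 50 Gy, with a difference of -1.88 ± 0.15 on day 4 and of -1.19 ± 0.15 between 50 and 30 Gy (adjusted p = 2.95e-08, limma). Plk1, a kinase that drives mitotic entry and spindle assembly, measured 0.62 and 0.93 on the unirradiated arrays, -0.93, -0.10 and -0.82 after 30 Gy and -1.88, -2.09 and -1.00 after 50 Gy, differences of -1.92 ± 0.16 and -1.04 ± 0.16. Again the 3 groups were apart, though the highest 50 Gy array lay close to the lowest 30 Gy array. Racgap1, needed for cytokinesis, the spindle kinase Aurka and the phosphatase Cdc25b differed by -1.67 ± 0.12, -1.62 ± 0.16 and -1.56 ± 0.12 on day 4. Mybl2, a transcription factor that switches on mitotic genes, was among the 15 largest falls named. It measured 3.22 and 3.37 on the unirradiated arrays, 1.28, 1.41 and 1.17 after 30 Gy and 0.71, 0.39 and 0.17 after 50 Gy, a difference of -2.44 ± 0.17.

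DNA replication genes fell too. Of 40 tested, 38 fell and none rose, with a median difference of -0.81. Mcm5, a subunit of the replicative helicase, measured 4.81 and 4.91 on the unirradiated arrays, 3.34, 3.67 and 3.23 after 30 Gy and 2.80, 2.70 and 2.55 after 50 Gy. Its difference was -1.81 ± 0.14 (adjusted p = 6.57e-18, limma), and the 50 Gy arrays lay below the 30 Gy arrays with a difference of -0.73 ± 0.14. Orc1, of the origin recognition complex, measured 2.40 and 2.57 on the unirradiated arrays, 1.58, 1.43 and 1.38 after 30 Gy and 0.68, 0.52 and -0.21 after 50 Gy, differences of -1.59 ± 0.15 on day 4 and -1.13 ± 0.15 between doses. Rrm2, a subunit of ribonucleotide reductase, Tk1, thymidine kinase, and Rpa2, of the single-strand binding complex, differed by -1.38 ± 0.16, -1.46 ± 0.14 and -1.50 ± 0.17 on day 4. Of 25 DNA repair and checkpoint genes 16 fell and 3 rose, with a median of -0.46. Fanca, of the Fanconi anaemia complex, measured 1.23 and 1.53 on the unirradiated arrays, -0.37, -0.40 and -0.46 after 30 Gy and -1.00, -1.15 and -0.64 after 50 Gy, a difference of -2.05 ± 0.13. Brca1 and Rad54l, of homologous recombination, and Ung, the uracil glycosylase, differed by -1.23 ± 0.14, -1.03 ± 0.14 and -1.16 ± 0.13. Xrcc5 (Ku80), of end joining, rose from levels near the floor, at 0.92 ± 0.18, and did not pass the test under quantile normalization or with the higher floor.

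Cdc20, Plk1 and Mcm5 are shown with their promoter letters, written and taken as above, for Cdc20 at chr4:118437294-118437593, minus strand, for Plk1 at chr7:122159185-122159484, plus strand, and for Mcm5 at chr8:75109259-75109558, plus strand. In Cdc20 and Plk1 capitals mark TTTGAA, the cell cycle genes homology region (CHR), and CCAAT, the box bound by NF-Y. In Mcm5 they mark the E2F site searched as TTTGGCGC, here on the opposite strand.
Cdc20: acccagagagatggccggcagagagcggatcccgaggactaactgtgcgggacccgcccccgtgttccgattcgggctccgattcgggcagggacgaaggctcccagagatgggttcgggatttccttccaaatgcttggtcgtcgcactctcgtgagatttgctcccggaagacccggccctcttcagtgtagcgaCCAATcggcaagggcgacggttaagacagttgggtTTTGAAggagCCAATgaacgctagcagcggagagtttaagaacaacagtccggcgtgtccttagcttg
Plk1: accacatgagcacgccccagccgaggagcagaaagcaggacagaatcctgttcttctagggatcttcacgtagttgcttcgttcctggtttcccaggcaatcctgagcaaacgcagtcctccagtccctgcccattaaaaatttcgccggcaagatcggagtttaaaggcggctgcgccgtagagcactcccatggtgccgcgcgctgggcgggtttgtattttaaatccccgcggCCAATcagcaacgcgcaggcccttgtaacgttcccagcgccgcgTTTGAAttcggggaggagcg
Mcm5: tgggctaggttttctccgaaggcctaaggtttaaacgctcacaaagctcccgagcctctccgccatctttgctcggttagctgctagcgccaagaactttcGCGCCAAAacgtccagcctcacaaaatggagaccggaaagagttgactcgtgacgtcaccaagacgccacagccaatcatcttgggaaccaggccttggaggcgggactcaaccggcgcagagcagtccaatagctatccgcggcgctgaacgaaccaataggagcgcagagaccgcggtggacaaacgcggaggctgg
In Cdc20 the CHR letters began at base -18 and CCAAT at -53 and -8, in Plk1 they began at base 31 and at -14, and in Mcm5 the E2F letters began at base -149. The marked letters do not overlap. Of 36 mitosis genes with a window, 26 held TTTGAA on either strand (72.2%) against 18.1% of all promoters, and 27 held CCAAT (75.0%) against 37.9%. Of 35 replication genes with a window, 5 held TTTGAA (14.3%) and 20 held CCAAT (57.1%), and 11 held TTTGGCGC or TTTCCCGC (31.4%), against 1.63% of all promoters and 0 of the 36 mitosis genes. TTTGAA is short, and it was also in 5 of the 8 GTPase windows (62.5%).

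Most cell cycle genes were lower after 50 Gy than after 30 Gy. Between 50 and 30 Gy, 1573 of 12949 genes differed, 476 higher (3.68%) and 1097 lower (8.47%). The count rests on a spread pooled over all groups: fitted on these 6 arrays alone 1 gene was called, with 1578 at an unadjusted p under 0.05, and with the filter and fit on the 20 gamma nfsa arrays 504 were. Of 43 mitosis genes 40 were lower and none higher, with a median difference of -0.82, and of 40 replication genes 31 were lower and none higher, with a median of -0.60. For 39 of 41 mitosis genes with a value on all 6 arrays every 50 Gy array was below every 30 Gy array. Of all genes with a value on those arrays 14.5% were below in this way and 6.81% above. Without replicate 3 of 50 Gy 506 genes were called in all, 0.75% higher and 3.16% lower, and 31 mitosis and 19 replication genes were lower. Under quantile normalization 38 and 27 were lower, among 7.34% of all genes higher and 5.27% lower. Of 25 repair genes 12 were lower at 50 Gy, with 6 of them left without replicate 3. The interferon-stimulated genes had 3 lower at 50 Gy and the T and NK cell genes none in either direction, and without replicate 3 none of either list was called. Outside the cell cycle lists, the largest falls at 50 Gy were Trpv6, a calcium channel, at -2.54 ± 0.44 with only 1 of 3 values at 30 Gy, and Lhx2, a developmental transcription factor, at -1.70 ± 0.19 with 2 of 3 values at 50 Gy. Ccne2, a cyclin of S phase entry, measured -0.08 and 0.71 on the unirradiated arrays, 0.57, 0.57 and 0.60 after 30 Gy and -0.41, -0.90 and -1.35 after 50 Gy, and Ect2, of cytokinesis, -0.72 and 0.60 on the unirradiated arrays, -0.07, -0.07 and -0.15 after 30 Gy and -1.29, -1.46 and -1.71 after 50 Gy. For both the 30 Gy arrays lay within the range of the unirradiated arrays and the 50 Gy arrays below them, with dose differences of -1.47 ± 0.19 and -1.39 ± 0.22.

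**Figure D2:**
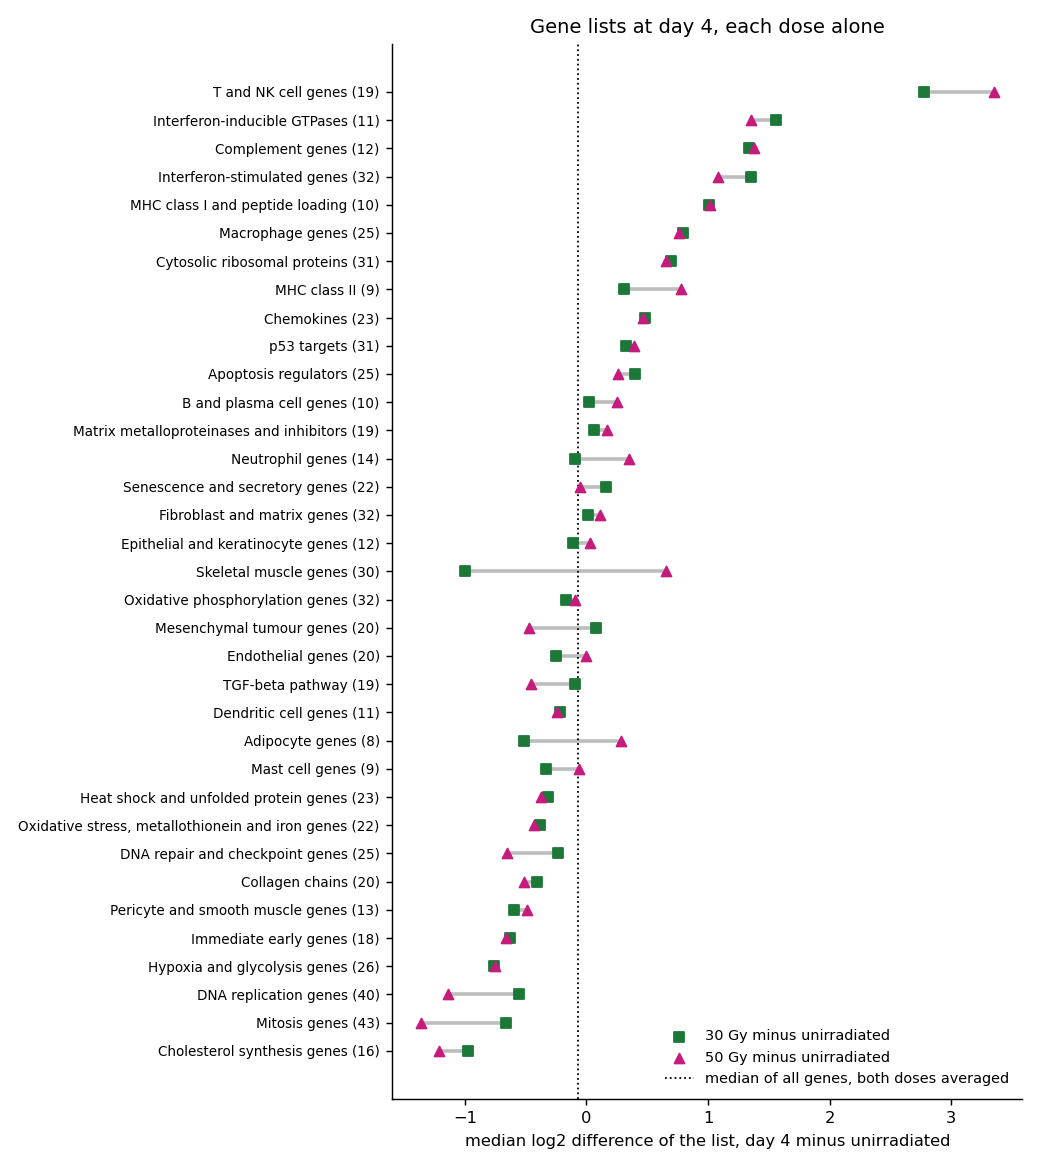
Median log2 difference from the unirradiated arrays for 35 gene lists with at least 8 genes tested, at 30 Gy (squares) and 50 Gy (triangles) on day 4, with the median of all genes dotted. The T and NK cell list lies farthest right, at 2.78 and 3.35, and the mitosis list shows -0.67 at 30 Gy and -1.36 at 50 Gy.

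The 6 largest rises at 50 over 30 Gy were all genes of slow skeletal or heart muscle fibres. Troponin I of slow fibres (Tnni1) measured 3.61 and 3.18 on the unirradiated arrays, -0.20, -1.15 and 0.32 after 30 Gy and 2.86, 2.50 and 3.26 after 50 Gy. The 50 Gy arrays were close to the unirradiated arrays and the 30 Gy arrays below both, and the dose difference was 3.22 ± 0.46 (adjusted p = 5.78e-07, limma). Myl2, the slow myosin light chain, measured 2.38 and 2.35 on the unirradiated arrays, -2.01, -1.58 and -1.64 after 30 Gy and 1.46, 0.27 and 3.98 after 50 Gy, and Tnnt1, the slow troponin T, 3.81 and 3.64 on the unirradiated arrays, 1.12, 0.89 and 0.85 after 30 Gy and 3.93, 3.71 and 4.46 after 50 Gy. Of 30 skeletal muscle genes 7 were higher at 50 Gy and none lower, with a median of 1.75, and without replicate 3 of 50 Gy 3 were higher, with a median of 0.56. On day 4 against the unirradiated arrays 1 of the 30 rose and 3 fell, with 1 and 7 when that array was left out. The part of host muscle in the pieces in these differences was not tested.

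The 16 cholesterol synthesis genes tested were lower as a group. Of these, 14 fell and none rose, with a median difference of -1.07, and of -0.97 at 30 Gy and -1.21 at 50 Gy alone. Srebf2, the transcription factor that drives the pathway, measured 1.51 and 1.68 on the unirradiated arrays, -0.09, 0.10 and 0.24 after 30 Gy and -0.35, -0.56 and 0.58 after 50 Gy, a difference of -1.60 ± 0.14 (adjusted p = 1.44e-15, limma). Idi1, Mvd and Fdps, enzymes between mevalonate and farnesyl diphosphate, differed by -1.65 ± 0.26, -1.59 ± 0.18 and -1.36 ± 0.19, and Sqle, squalene epoxidase, by -1.62 ± 0.23 with 1 of 3 values at 50 Gy. Dhcr7, which makes the final step to cholesterol, measured 2.25 and 2.35 without irradiation and differed by -0.09 ± 0.11, and Mvk, mevalonate kinase, by -0.18 ± 0.12. Neither passed the test, and both were named after their values were seen. Fads2, a desaturase that the same factor family controls, was among the 15 largest falls named, at -2.46 ± 0.17. In unirradiated mmca Srebf2 differed by 0.04 between day 1 and day 9. The letters CCAAT were in 12 of 13 windows of the list (92.3%).

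Of 26 hypoxia and glycolysis genes 21 fell and none rose, with a median difference of -0.75. Slc16a3, the lactate exporter MCT4, measured 4.14 and 4.25 on the unirradiated arrays, 1.89, 1.85 and 1.99 after 30 Gy and 2.14, 1.60 and 1.96 after 50 Gy. Its difference was -2.29 ± 0.15 (adjusted p = 4.04e-21, limma), and the difference between doses, -0.01 ± 0.15, was not called. Pfkl, a phosphofructokinase of glycolysis, measured 3.86 and 4.12 on the unirradiated arrays, 1.89, 2.13 and 2.06 after 30 Gy and 2.01, 1.61 and 2.21 after 50 Gy, a difference of -2.00 ± 0.14. Egln3, a hypoxia-induced prolyl hydroxylase, and Car9, a hypoxia-induced carbonic anhydrase, differed by -1.39 ± 0.17 and -1.22 ± 0.26. The lactate dehydrogenase Ldha, at -0.06 ± 0.12, and the vessel growth factor Vegfa, at 0.09 ± 0.22, did not pass the test, and were named after their values were seen. On day 9, 22 of 26 genes were higher than on day 4 and none lower, where 11.2% of all genes were higher and 9.36% lower, over both doses together. The doses stood apart: the mean of 24 genes of the list was 2.95 to 3.06 on day 4 and 4.20 to 4.86 on day 9 after 30 Gy, and 2.75 to 3.05 and 2.93 to 3.02 after 50 Gy. Car9 measured 7.27, 6.42 and 5.48 on day 9 after 30 Gy, and 1.72, 2.03 and 2.66 after 50 Gy, within or near its range on day 4.

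Cytosolic ribosomal protein genes were higher, with 29 of 31 called higher and 1 lower and a median difference of 0.67. Rplp0, of the ribosomal stalk, measured 7.59 and 7.75 on the unirradiated arrays, 8.48, 8.51 and 8.54 after 30 Gy and 8.58, 8.47 and 8.39 after 50 Gy, a difference of 0.82 ± 0.096. This result depended on the scaling. After quantile normalization 9 were higher and 4 lower, with a median of 0.07, where 17.3% of all genes were higher and 45.4% lower. The mean of 21 of the genes was 7.09 and 7.10 on the unirradiated arrays and 7.57 to 7.70 on day 4. On day 1 it was 7.70 and 7.54 after 30 Gy, 7.08 and 7.14 after 50 Gy and 6.94 and 6.95 after 70 Gy. In unirradiated mmca the median was 0.52 between day 1 and day 9.

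Several contractile genes fell. Of 13 pericyte and smooth muscle genes 7 fell and 2 rose, where 34.3% of all genes fell and 24.4% rose. The median difference of the 13 was -0.51. Smooth muscle actin (Acta2), also a marker of myofibroblasts, measured 7.33 and 7.55 on the unirradiated arrays, 5.63, 5.40 and 5.48 after 30 Gy and 4.64, 4.55 and 4.89 after 50 Gy. The 3 groups did not overlap, in the order unirradiated, 30 Gy, 50 Gy, and the difference was -2.34 ± 0.23 on day 4 and -0.81 ± 0.23 between doses. Transgelin (Tagln), an actin-binding protein, measured 5.53 and 5.61 on the unirradiated arrays, 3.81, 3.26 and 3.24 after 30 Gy and 3.12, 3.04 and 2.89 after 50 Gy, a difference of -2.34 ± 0.23. The smooth muscle actin Actg2, the pericyte proteoglycan Cspg4 and smoothelin (Smtn) differed by -2.20 ± 0.31, -1.79 ± 0.18 and -1.18 ± 0.12. Ccn1 and Ccn2, matricellular proteins of mechanical and growth factor signalling, differed by -1.75 ± 0.15 and -1.76 ± 0.23.

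Of 20 collagen chains 11 fell and 1 rose, with a median difference of -0.50. Col1a1, the main chain of type I collagen, measured 5.01 and 5.60 on the unirradiated arrays, 3.68, 3.71 and 4.16 after 30 Gy and 3.52, 2.98 and 3.30 after 50 Gy, a difference of -1.75 ± 0.42 (adjusted p = 0.000268, limma). Col5a3 and Col5a1, of type V collagen, and Col7a1, of anchoring fibrils, differed by -1.78 ± 0.21, -1.29 ± 0.28 and -1.39 ± 0.27. Col3a1, of type III collagen, was singled out as an exception: it had 1 value without irradiation (7.80), measured 8.49, 8.46 and 8.42 after 30 Gy and 8.48 and 8.55 on 2 arrays after 50 Gy, and did not pass the test. Of 32 fibroblast and matrix genes 8 rose, a share near the 24.4% of all genes that rose, and 5 fell, where 34.3% of all genes fell. The proteoglycan decorin (Dcn), fibulin 5 (Fbln5) and the fibulin-like Efemp1 differed by 1.56 ± 0.46, 1.48 ± 0.19 and 1.86 ± 0.45. Of 19 metalloproteinases and inhibitors 6 rose and 6 fell. Mmp9, gelatinase B of osteoclasts, neutrophils and macrophages, measured 2.19 and 2.91 on the unirradiated arrays, -0.22, -0.88 and -1.28 after 30 Gy and -0.47, -1.22 and -0.03 after 50 Gy, a difference of -3.23 ± 0.25. Mmp3 (stromelysin 1) measured 3.92 and 4.06 on the unirradiated arrays, 6.37, 6.32 and 6.57 after 30 Gy and 6.66, 6.44 and 6.37 after 50 Gy, a difference of 2.46 ± 0.34 in the other direction, and Mmp10 and the aggrecanase Adamts5 also rose, by 1.77 ± 0.24 and 1.96 ± 0.31.

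Genes typical of mesenchymal tumour cells were mixed. Of 20 tested, 9 fell and 6 rose, where 34.3% of all genes fell and 24.4% rose. The median difference was -0.19, which was 0.11 without replicate 2 of the unirradiated arrays. Itga5, the fibronectin receptor subunit, measured 2.99 and 3.46 on the unirradiated arrays, 0.93, 1.30 and 1.40 after 30 Gy and 0.79, 0.53 and 0.00 after 50 Gy, a difference of -2.40 ± 0.17. The growth factor receptor Fgfr1, the hyaluronan receptor Cd44 and the transcription factor Twist2 differed by -2.16 ± 0.20, -2.04 ± 0.22 and -1.23 ± 0.17. All 6 day 4 arrays were below both unirradiated arrays for these genes. In the whole list this held for 7 of 20 genes, and for 4 all day 4 arrays were above. Of all genes 31.5% were below in this way and 20.6% above.

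The 15 largest falls named included genes that had been clearly measured without irradiation. Tbr1, a transcription factor known from the developing cortex, measured 3.91 and 4.13 on the unirradiated arrays, 0.04, -0.02 and 0.17 after 30 Gy and 0.26, 0.59 and 0.25 after 50 Gy, a difference of -3.81 ± 0.25 (adjusted p = 1.91e-21, limma). Otx1, another developmental transcription factor, measured 1.31 and 1.22 on the unirradiated arrays, -1.40, -1.85 and -1.10 after 30 Gy and -2.21, -2.30 and -2.03 after 50 Gy, a difference of -3.08 ± 0.20. Gata5, a factor of endoderm and heart, differed by -3.31 ± 0.24, with the unirradiated arrays at 5.40 and 3.84. Ret, a receptor tyrosine kinase, Bok, a pro-apoptotic BCL2 relative, and Pkp2, a desmosome protein, differed by -2.46 ± 0.17, -2.49 ± 0.20 and -2.48 ± 0.18. On day 1 the doses stood apart for Tbr1, with 0.86 and 0.70 after 30 Gy and 3.96 and 3.71 after 50 Gy. The same held for Gata5 (1.16 and 1.05, then 4.00 and 4.58) and Ret (0.42 and 0.91, then 3.50 and 2.71). After 50 Gy these genes were thus near their unirradiated level on day 1. For Otx1 the doses overlapped (-0.34 and 0.05, then -0.32 and -0.13). Why the doses differed on day 1 was not tested. Slc9b2, a sodium-proton exchanger, measured 4.73 and 4.70 on the unirradiated arrays, 1.92, 0.21 and -0.21 after 30 Gy and 1.83, 0.66 and 1.64 after 50 Gy, a difference of -3.71 ± 0.30, and Acp5, the tartrate-resistant acid phosphatase of osteoclasts and macrophages, 6.57 and 6.85 on the unirradiated arrays, 4.90, 3.45 and 2.92 after 30 Gy and 4.84, 4.15 and 5.31 after 50 Gy, a difference of -2.45 ± 0.27. The day 4 arrays of Slc9b2 and Acp5 spread widely, and all were below the unirradiated arrays. Ocstamp and Atp6v0d2, both known from osteoclast fusion, differed by -2.67 ± 0.28 and -2.47 ± 0.29.

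**Figure D3:**
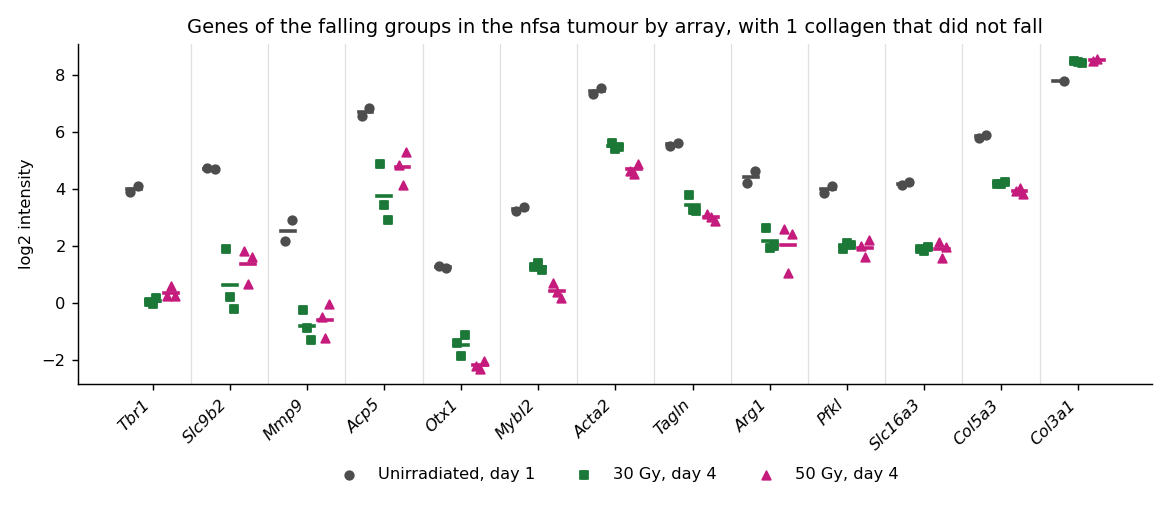
Log2 intensity on each nfsa array (points; bars are group means) of 12 genes that fell on day 4 and of Col3a1, which did not. Tbr1 lies at 3.91 and 4.13 without irradiation and between -0.02 and 0.59 on the 6 day 4 arrays, and Mybl2 and Acta2 are lower after 50 Gy than after 30 Gy.

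Immediate early genes, which growth factors and stress induce within minutes, were lower, with 12 of 18 called lower and none higher and a median difference of -0.63. The nuclear receptor Nr4a1 measured 3.83 and 3.95 on the unirradiated arrays, 1.50, 1.66 and 1.69 after 30 Gy and 1.66, 1.82 and 1.80 after 50 Gy, a difference of -2.20 ± 0.19, and the AP-1 subunit Fosl1 and the phosphatase Dusp1 differed by -1.93 ± 0.21 and -1.10 ± 0.16. Of 23 heat shock and unfolded protein genes 10 fell and 3 rose, and of 22 oxidative stress and iron genes 12 fell and 3 rose. These counts and the next ones stand beside 34.3% of all genes that fell and 24.4% that rose. The cochaperone Dnajb1 differed by -0.99 ± 0.11, the cystine transporter Slc7a11 by -1.17 ± 0.27 and the metallothionein Mt2 by -1.14 ± 0.21. Of 25 apoptosis regulators 12 rose and 7 fell. Besides Fasl and Fas, the inflammatory caspase Casp1 and the BH3-only protein Bmf rose, by 1.52 ± 0.17 and 1.34 ± 0.18, while Bak1, which permeabilises mitochondria, differed by -1.27 ± 0.13. Of 22 genes tied to senescence and its secretions 7 rose and 5 fell. Hepatocyte growth factor (Hgf) measured -0.29 and -0.05 on the unirradiated arrays, 2.39, 2.56 and 2.58 after 30 Gy and 2.98, 2.83 and 2.20 after 50 Gy, a difference of 2.76 ± 0.23, and lamin B1 (Lmnb1), whose loss accompanies senescence, 3.14 and 3.42 on the unirradiated arrays, 2.10, 2.25 and 2.12 after 30 Gy and 1.68, 1.37 and 1.58 after 50 Gy, a difference of -1.43 ± 0.14. Of 19 genes of TGF-beta and BMP signalling 9 fell and 3 rose, with the target Id1 at -1.51 ± 0.19 and the ligands Bmp2 and Bmp4 at 1.07 ± 0.28 and -1.02 ± 0.21.

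Genes of blood and of other tissues were counted as a check of what each piece held. The platelet chemokines Pf4 and Ppbp, the 2 platelet genes tested, differed by -1.76 ± 0.27 and -2.20 ± 0.27. Of 3 red cell genes 2 fell, and Alas2, of haem synthesis in red cells, differed by -0.99 ± 0.18. Of 20 endothelial genes 5 rose and 4 fell, beside 24.4% of all genes that rose and 34.3% that fell. Their median difference of -0.20 was -0.02 without replicate 2 of the unirradiated arrays. Under quantile normalization 2 rose and 7 fell, beside 17.3% and 45.4% of all genes. The water channel Aqp1 differed by -1.28 ± 0.26 and von Willebrand factor (Vwf) by 1.00 ± 0.27. Of 12 epithelial genes 1 rose and 2 fell.

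Most of the rise in lymphocyte and interferon genes came after day 1. Against day 1 at the same 2 doses (4 arrays), 7588 of 12925 genes (58.7%) differed, 3407 higher (26.4%) and 4181 lower (32.3%). The day 4 arrays are the same as above, so this comparison and the one with the unirradiated arrays share them. Of 19 T and NK cell genes 16 were higher than on day 1 and 1 lower, and of 32 interferon-stimulated genes 30 were higher and none lower. Without replicate 3 of 50 Gy 17 and 30 were higher and none lower, among 29.7% of all genes higher and 30.7% lower. Under quantile normalization 14 and 29 were higher and 1 of each list lower, among 19.2% higher and 43.3% lower. The T and NK cell list had a median difference from the unirradiated arrays of -0.15 on day 1, 3.16 on day 4 and 2.04 on day 9 over both doses. By dose, the mean of 18 of its genes was 2.02 to 2.46 on day 4 and 0.73 to 1.13 on day 9 after 30 Gy, and 2.44 to 2.80 and 2.53 to 2.75 after 50 Gy, where the days overlapped. Gzma measured 1.07 to 2.27 on the 4 arrays of day 1 and differed by 5.83 ± 0.29 between day 4 and day 1 (adjusted p = 1.69e-26, limma), and on day 9 it was lower again, at -2.34 ± 0.26 against day 4. On day 9 it measured 3.75, 4.00 and 3.69 after 30 Gy and 6.03, 6.43 and 6.85 after 50 Gy, all above day 1 and below day 4 at the same dose. The interferon-stimulated genes had medians of -0.06, 1.22 and 1.01 on days 1, 4 and 9 and the GTPases of 0.08, 1.46 and 1.11 over both doses. After 30 Gy the means of both lists were lower on day 9 than on day 4 with no overlap (2.52 to 3.36 against 3.47 to 3.75 for 30 interferon-stimulated genes), and after 50 Gy the days overlapped (3.38 to 3.53 against 3.01 to 3.45).

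The cell cycle lists had separate courses. Replication genes were already lower on day 1, with medians of -0.54, -0.81 and -0.71 on days 1, 4 and 9. Mitosis genes had a median of -0.04 on day 1, -1.06 on day 4 and -0.62 on day 9 over both doses. On day 1 the doses stood apart. The mean of 39 mitosis genes was then 3.37 and 3.53 after 30 Gy and 3.86 and 3.78 after 50 Gy. It was 3.58 and 3.83 on the unirradiated arrays. Of the 43 mitosis genes 40 were lower on day 4 than on day 1 and none higher, and 34 were higher on day 9 than on day 4 and none lower. Without replicate 3 of 50 Gy 39 were lower on day 4 than on day 1. Cholesterol synthesis genes had medians of -0.50, -1.07 and -0.71. Hypoxia genes had medians of -0.41 on day 1 and -0.75 on day 4, and on day 9 the doses lay too far apart for one median, as given above. Targets of p53 had medians of 0.45, 0.33 and 0.15. Between day 9 and day 4, 2663 of 12939 genes (20.6%) differed, 11.2% of those tested higher and 9.36% lower. Endothelial genes were among those that fell late, with 15 of 20 lower on day 9 than on day 4 and none higher, and a median difference from the unirradiated arrays of -0.80.

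**Figure D4:**
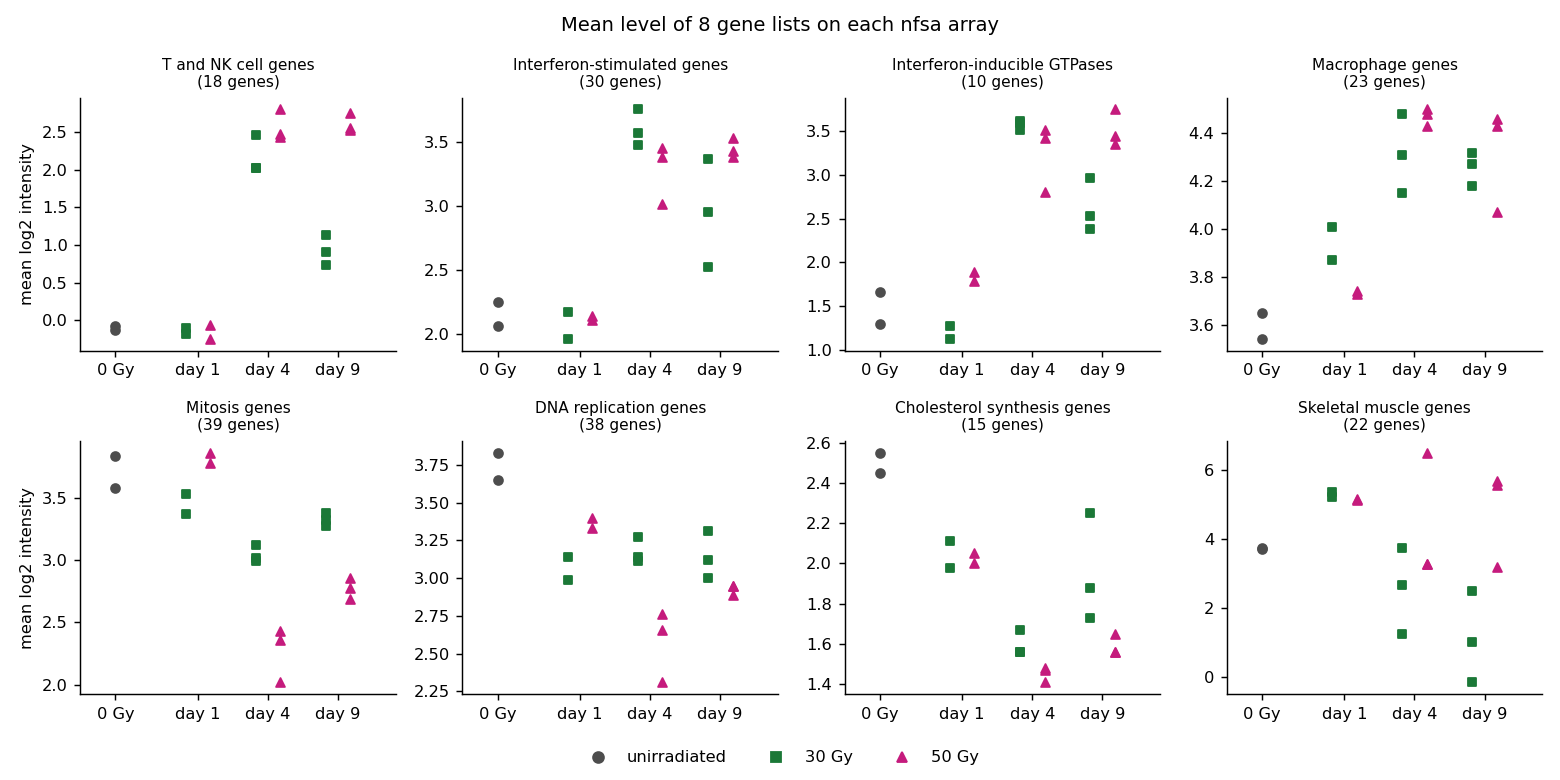
Mean log2 intensity of 8 gene lists on each nfsa array, without irradiation and on days 1, 4 and 9 after 30 and 50 Gy, with 1 point per array. The T and NK cell mean lies at -0.13 and -0.07 without irradiation and at 2.02 to 2.80 on day 4, and the mitosis mean is 2.99 to 3.12 after 30 Gy and 2.02 to 2.43 after 50 Gy on day 4.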

How the data were processed

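Each array gave 1 intensity per probe, deposited by the authors for 36227 probes. The RNA, purified with ISOGEN and RNeasy, carried Cy5 per the labels' protocols, and the normalization software is not given in the sources used here. The deposited values were taken to log2 after raising the lowest to 0.1269, which is the 5th percentile above 0, and missing values stayed missing. Probes with 1 gene symbol in the platform annotation (21615), a value on 90% of arrays and a mean above the 20th percentile were kept, 1 probe per gene, which left 12962 genes. One model with a mean for each of 54 groups was fitted to all arrays of the series (limma 3.58.1, R 4.3.3, 67 residual degrees of freedom, empirical Bayes with a trend), and genes with an adjusted p under 0.05 over all genes were called. The script was tested on simulated data.

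The arrays and gene lists were chosen with earlier results of these data known. Named were the 15 largest rises and falls of one direction at both doses with no overlap, up to 5 called genes per list, 5 p53 and proliferation genes (Cdkn1a, Mdm2, Ccng1, Trp53inp1 and Mki67, of which Mki67 was not tested), and 6 rises and 6 falls between doses and between days. This gave 213 genes. Another 10 were passed over as gene models, clones, olfactory receptors or genes whose function is not well known. Alternatives changed the normalization, floor, filters, probe choice, weights, fitted arrays, block and each replicate. The number of arrays limits the precision.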

Additional observations from a re-analysis of the deposited data

Results flagged for a closer look

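The 6 largest rises and 6 largest falls named between day 1 and day 4 at the same doses passed the test of that difference. The 2 days thus differ for them. The rises were Gzma at 5.83, Sh2d1a at 4.64, Klrc1 at 4.04, Sh2d2a at 3.89, and the NK cell receptors Klrd1 at 3.80 and Klre1 at 3.80 (log2). The falls were the muscle genes Pvalb (parvalbumin) at -3.23, Ckm (creatine kinase) at -3.23, Rpl3l at -2.83, Hspb6 at -2.64 and Xirp1 at -2.63, and the exchanger Slc9b2 at -3.00. Pvalb and Ckm differed widely within day 4, from 0.63 to 7.97 for Pvalb, with the highest value on replicate 3 of 50 Gy.

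Among probes outside the test, 42 with a gene name had no value on either unirradiated array and a value on all 6 day 4 arrays. The lowest day 4 value was 5.09 for Susd6, 3.70 for the integrin Itgb3, 2.43 for Tnfaip8l2 and -2.17 for interferon gamma (Ifng), and the last is near the floor. Itgb3 already had a value on both day 1 arrays after 30 Gy (3.89 and 3.67) and on neither after 50 Gy. The reverse, a value on both unirradiated arrays and none on day 4, held for 209 named probes. Why a probe has no value is not given in the sources used here, and more probes lack one on the day 4 arrays, so no fold was taken.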

How the results depend on the processing

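Of the 7581 genes called on day 4, 115 changed sign under quantile normalization, 74 with missing values set to the floor, 24 and 31 without replicate 1 or 2 of the unirradiated arrays and 1 without replicate 3 of 30 Gy. No named gene changed sign. The medians of 8 of 37 gene lists changed sign under at least 1 alternative: under quantile normalization neutrophil (0.0971 to -0.00498), B and plasma cell (0.14 to -0.20) and senescence genes (0.03 to -0.17), with missing values set to the floor metalloproteinases (0.13 to -0.21) and platelet genes (-1.98 to 0.21), and without 1 array fibroblast (-0.07 to at most 0.11), skeletal muscle (-0.11 to at most 0.21) and mesenchymal genes (-0.19 to 0.11). With missing values set to the floor more genes were tested, so the members of a list can change. As deposited the platelet median rested on Pf4 and Ppbp only, and neither of these genes changed sign. The counts that moved by more than 1.5 times were these. With 1 value per group, which leaves 6 residual degrees of freedom, day 4 against unirradiated gave 433 genes (209 higher and 224 lower), day 4 against day 1 gave 428, and day 9 against day 4 gave 0 by limma, with 231 at an unadjusted p under 0.05 and 2663 with all arrays. Fitted on the arrays of the comparison only, 50 Gy against unirradiated gave 3670, day 9 against day 4 gave 1272, and 50 against 30 Gy gave 1, with 1578 at an unadjusted p under 0.05. Filter and fit on the 20 gamma nfsa arrays gave 504 between doses and 1741 between days 9 and 4, where array weights gave 4318. Leaving out 1 array gave 6094 to 7711 genes for day 4, 5308 to 6144 for 30 Gy, 6217 to 7335 for 50 Gy, 6823 to 7798 against day 1 and 2112 to 2914 for day 9. Between doses it gave 506 to 2493: 506 without replicate 3 of 50 Gy, 2493 and 2272 without its replicates 1 and 2, and 861 and 830 without replicates 2 and 3 of 30 Gy. Quantile normalization kept 6614 of the 7581 day 4 calls in the same direction and turned the split between doses from 30.3% to 58.2% higher. It gave 24.4% of calls higher at 30 Gy (44.3% as deposited) and 30.7% against day 1 (44.9%). Of 188 genes named for day 4, 9 lost their call under it and 15 with missing values set to the floor, among them H2-M3, Dcn and Rplp0, and 134 with 1 value per group.

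Replicate numbers are shared between groups, but same-numbered arrays did not deviate together (correlations of -0.446 to 0.29), so the numbers do not pair the arrays. With the number as a replicate block 7577 genes were called on day 4, 6745 at 30 Gy, 7497 at 50 Gy, 1629 between doses, 7572 against day 1 and 2823 for day 9.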

Other observations

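Since Acp5, Ocstamp, Atp6v0d2, Slc9b2 and Mmp9, all known from osteoclasts, were among the largest falls, other genes known from that cell were looked up after those values were seen, and no test was made of the group. Cathepsin K (Ctsk), its collagen-degrading protease, measured 5.35 and 5.38 on the unirradiated arrays, 3.54, 3.36 and 3.72 after 30 Gy and 3.61, 3.22 and 4.45 after 50 Gy, and the day 4 arrays lay below the unirradiated arrays. Dcstamp, a fusion protein, differed by -0.83 ± 0.16, the calcitonin receptor Calcr by -0.71 ± 0.18 and the proton pump subunit Tcirg1 by -0.61 ± 0.11, all called lower. Carbonic anhydrase 2 (Car2), at 0.92 ± 0.18, and Ostm1, at 0.37 ± 0.091, were called higher. The transcription factor Nfatc1, at -0.17 ± 0.12, and the receptor Tnfrsf11a (RANK), at 0.09 ± 0.14, did not pass the test. The integrin Itgb3 had no value on either unirradiated array and measured 3.70 to 3.95 on the day 4 arrays, so its difference was not tested. On day 1 it measured 3.89 and 3.67 after 30 Gy and had no value on either array after 50 Gy.

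Between day 9 and day 4 the largest rises included granzyme G (Gzmg) at 1.44 ± 0.51, the chemokine Cxcl13 at 1.75 ± 0.41, proenkephalin (Penk) at 1.69 ± 0.28 and the cell cycle inhibitor Cdkn1c at 1.46 ± 0.14. The largest falls included Gzma, Gzmb at -1.57 ± 0.21, the basophil protease Mcpt8 at -1.55 ± 0.22 and the macrophage lectin Chil3 at -2.05 ± 0.23. These values are over both doses. Gzmg was 4.72 to 5.15 on day 4 and 6.59 to 7.82 on day 9 after 30 Gy, while the days overlapped after 50 Gy (4.87 to 5.36 and 4.76 to 6.83). Cxcl13 was -2.15 to -0.93 and -1.42 to -0.21 after 30 Gy, where the days overlapped, and -1.27 to 0.31 and 1.83 to 2.44 after 50 Gy. Cdkn1c was 0.56 to 0.76 and 3.23 to 3.46 after 30 Gy and 0.83 to 1.15 and 1.13 to 1.38 after 50 Gy. Gzma and Gzmb were lower on day 9 at both doses.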
